A study of Homo sapiens with 6 samples.

Results

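Amiloride is a potassium-sparing diuretic, and 9 genes for the membrane channels and exchangers it is known to block, or for subunits and relatives of these, were followed on exon arrays of Huh-7 cells. They were SCNN1A, SCNN1B, SCNN1G and SCNN1D, the subunits of the epithelial sodium channel (ENaC), ASIC1, an acid-sensing ion channel that the array annotation lists under its older symbol ACCN2, SLC9A2, SLC9A3 and SLC9A8, sodium-proton exchangers, and SLC8A1, a sodium-calcium exchanger. The genes were chosen by name, from their pharmacology, and all 9 were measured, out of 18674 genes with at least 3 probe sets of 1 gene symbol. Together they had 200 of the 1408285 probe sets on the array, and 0 of their probe sets carried several symbols. Huh-7 cells come from a human liver cancer, a hepatocellular carcinoma, and are an established line. The 2 groups were cells kept for 24 h in 0.5 mM amiloride (3 arrays) and untreated cells (3 arrays), each array being labelled a biological replicate. The amiloride stock was made in DMSO, and whether the untreated cells received DMSO is not given in the sources used here, so amiloride and its solvent cannot be told apart.

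ENaC is assembled from homologous subunits at the apical membrane of kidney tubules, airways and distal colon, where it sets how much sodium is taken back, and amiloride plugs its pore. The sodium-proton exchangers (NHE) carry protons out of the cytoplasm in exchange for sodium and so raise intracellular pH, which is why amiloride is used as a pH modulator. The sodium-calcium exchanger moves calcium across the plasma membrane against sodium and is best known from heart muscle. None of these is a textbook hepatocyte gene. The question put to the arrays was which of these targets gave a signal in Huh-7 cells, and whether their RNA changed in the drug.

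The arrays differed in brightness, with a median intensity of 4.71 to 12 on amiloride arrays and 5.08 to 13.1 on control arrays, and the brightest array of each group was its replicate 1. Each level is therefore given beside the median of all probe sets of its own array, or as a percentile among the 18674 gene levels of its own array. A percentile is not changed by a common scale factor of the array. It still carries other differences between arrays, such as those of control replicate 1 below. A gene level is the median log2 intensity over the probe sets of the gene. Control replicate 1 stood apart from the other arrays at the gene level, its highest correlation with another array being 0.84, against 0.93 to 0.96 for the other arrays. At the level of single probe sets it was control replicate 2, at 0.79. The markers matched the labelled cell type: all 10 hepatocyte and hepatoma markers measured had mean percentiles of 95.4 to 100. The 20 markers of kidney and airway, neuron, heart muscle, fibroblast and leukocyte had a median percentile of 35.4. Only AQP3, a water channel, at 79.4, and COL1A1, a collagen chain, at 55.2, were above the middle of the genes.

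Of the 9 targets, 5 lay above the array median on all 6 arrays: SCNN1A, SCNN1B, SCNN1D, SLC9A3 and SLC9A8. ASIC1 lay above it on 5 arrays, SCNN1G on 3 and SLC9A2 on 1, and SLC8A1 lay below it on all 6. The array median is taken over all probe sets, most of which have no gene symbol, and it lay under the median of the gene levels on every array. So 67.6% of all genes lay above it on all 6 arrays and 11.2% below it on all 6, against 55.6% and 1 of 9 for the targets. Set against the median of all gene levels instead, 0 of the 9 were above on all 6 arrays and 5 were below on all 6. As a mean over 6 arrays, the targets ran from percentile 55.8 for SCNN1D over 51.2 for SLC9A8, 47.6 for SCNN1A, 43.4 for SLC9A3, 38.4 for SCNN1B and 35.5 for ASIC1 to 20.1 for SCNN1G, 15.4 for SLC9A2 and 9.66 for SLC8A1. Of neighbours in this order, ASIC1 and SCNN1G kept their order on 6 of 6 arrays, with a difference of 15.4 ± 11.0 percentiles (SD, n = 6 arrays). The other neighbours differed by 2.94 to 5.72 percentiles and kept their order on 3 to 5 arrays, against SDs of 5.09 to 13.8. Probe sets of different genes bind with different strength, so that the order is one of array signal and not of RNA molecules.

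**Figure D1:**
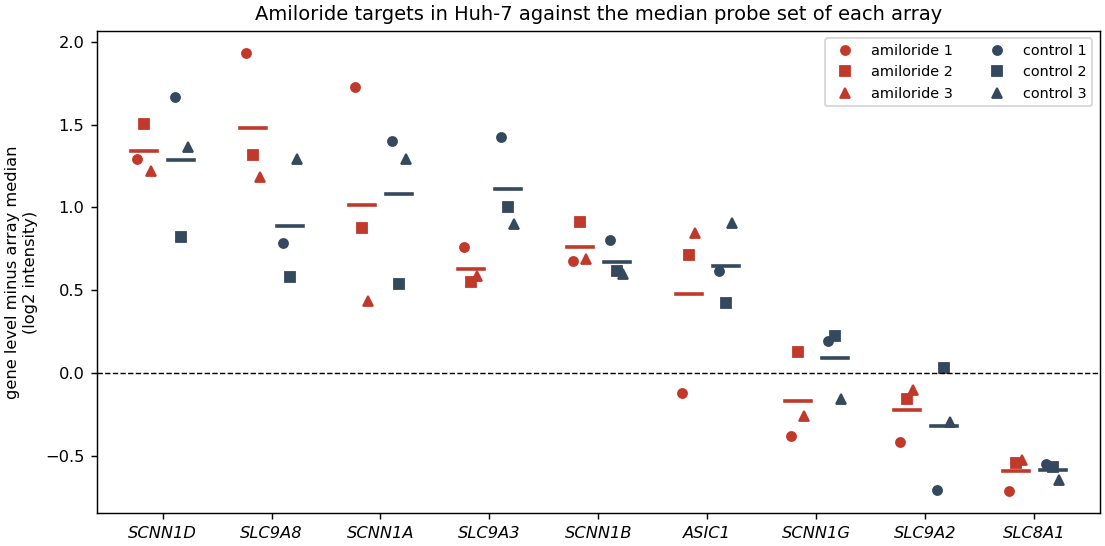
Gene level minus the median of all probe sets of the same array, on the log2 scale, for the 9 targets on each array, amiloride in red and control in dark grey, with bars at the mean of 3 arrays and a dashed line at the array median. SCNN1D, SLC9A8, SCNN1A, SLC9A3 and SCNN1B are above the line on all 6 arrays, SLC8A1 is below it on all 6, and only for SLC9A3 are all 3 amiloride arrays apart from all 3 control arrays.

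**Figure D2:**
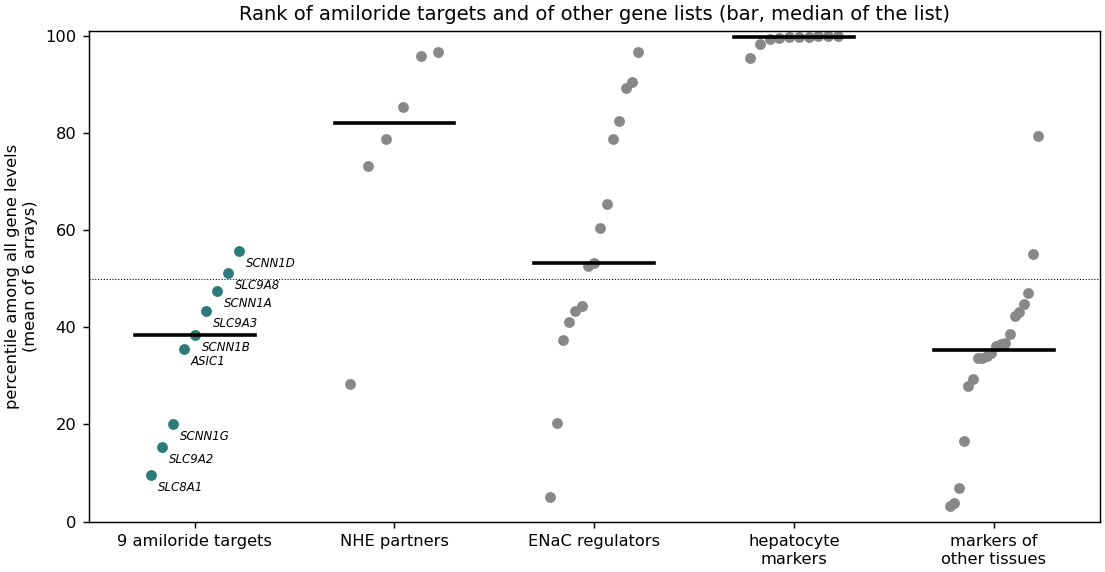
Mean percentile over 6 arrays of each gene among all gene levels, for the 9 targets (named), proteins that bind or regulate sodium-proton exchangers, regulators of the epithelial sodium channel, and marker genes of hepatocytes and of other tissues, with bars at the median of each list. The targets have a median of 38.4, near the 35.4 of the markers of other tissues and far from the hepatocyte markers.

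Of the 3 subunits of the classical ENaC, SCNN1A had the higher percentile against SCNN1B on 3 of 6 arrays, and SCNN1G was under both on every array. SCNN1A, the alpha subunit, without which the channel conducts little, was 1.73, 0.88 and 0.43 above the array median (log2) on amiloride replicates 1 to 3, and 1.40, 0.54 and 1.30 above it on control replicates 1 to 3. The groups overlapped, and the spread within each was wide. SCNN1B, the beta subunit, varied least of the subunits in amiloride and in control, at 0.67, 0.91 and 0.69 on amiloride arrays and 0.80, 0.61 and 0.60 on control arrays, again with overlap. SCNN1G, the gamma subunit, straddled the array median, with -0.38, 0.13 and -0.26 on amiloride arrays against 0.20, 0.22 and -0.16 on control arrays. In the RefSeq annotation of GRCh38.p14 SCNN1B and SCNN1G are next to each other in the genome, and SCNN1B had the higher percentile on every array. SCNN1D, the delta subunit, which in other cells can take the place of the alpha subunit, was the highest of the 9 on average, at 1.29, 1.50 and 1.22 above the array median on amiloride arrays and 1.67, 0.82 and 1.36 above it on control arrays. These groups overlapped too.

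ASIC1, a channel of neurons that opens when the outside turns acid, was at -0.12, 0.71 and 0.84 relative to the array median on amiloride arrays and at 0.62, 0.42 and 0.91 on control arrays. Amiloride replicate 1 was the only array with ASIC1 below the median.

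Of the sodium-proton exchangers, SLC9A8 (NHE8), found in the Golgi and in apical membranes, was 1.93, 1.32 and 1.18 above the array median on amiloride arrays and 0.78, 0.58 and 1.29 above it on control arrays. Its percentiles of 63.6, 52.1 and 53.3 in amiloride and 43.9, 36.4 and 57.6 in control overlapped through control replicate 3. SLC9A3 (NHE3), the apical exchanger of kidney and gut, was 0.76, 0.55 and 0.58 above the array median on amiloride arrays and 1.43, 1.00 and 0.90 above it on control arrays. It was the only target whose groups did not overlap. In percentiles SLC9A3 had 35.9, 31.2 and 35.0 in amiloride, against 63.6, 49.0 and 45.5 in control. Among all genes, 8.4% had percentiles that were lower in amiloride without overlap, and 7.97% had higher ones. By distance from the array median, 2.89% of genes were lower without overlap. The share of 1 in 9 is thus to be read against these. SLC9A2 (NHE2), another epithelial exchanger, was low throughout, at -0.42, -0.16 and -0.11 on amiloride arrays and -0.71, 0.03 and -0.30 on control arrays.

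SLC8A1 (NCX1) was the dimmest target, at -0.71, -0.54 and -0.53 relative to the array median on amiloride arrays and -0.55, -0.57 and -0.65 on control arrays. Its percentiles were 8.10 to 12.4 over all 6 arrays.

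None of the 9 targets passed the test for a change in amiloride. With limma on the deposited values and Benjamini-Hochberg adjustment over 18674 genes, 0 of 9 had an adjusted p under 0.05 and 0 had an unadjusted p under 0.05. In that fit 6 genes passed (0.0321%), all of them higher in amiloride, while 372 higher and 21 lower genes had an unadjusted p under 0.05. The intervals were wide, since the fit assigned 1 standard error of 0.66 to every gene, which contains the difference in brightness between the arrays of a group. The log2 fold change, amiloride minus control, was -0.57 for SLC9A3 with a 95% interval of -1.86 to 0.72, and 0.50 for SLC9A8 with an interval of -0.79 to 1.80, each with an adjusted p of 1.00. SCNN1G was at -0.35, ASIC1 at -0.26, SCNN1A at -0.15, SLC8A1 at -0.10, SCNN1D at -0.03, SCNN1B at 0.00 and SLC9A2 at 0.01. The median of the 9 was -0.10, against 0.04 over all genes, and 8 of the 9 were under that median of all genes. Leaving out control replicate 1 took SLC9A3 to -0.01, and leaving out amiloride replicate 1 took SLC9A8 to -0.10. For the other 7 targets the sign turned when at least 1 array was left out.

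Arrays of the same replicate number resembled each other, in brightness and in single probe sets, so each amiloride array was also set against the control array of its number. SLC9A3 was lower in amiloride in all 3 pairs, by log2 differences of -0.79, -0.56 and -0.35, and so was SCNN1G, at -0.70, -0.21 and -0.14. This held for 13.1% of all genes, while 23.8% were higher in all 3 pairs. None of the other 7 targets had the same sign in all 3. With the replicate number as a block in limma, the standard errors of the targets came to 0.25 to 0.31. SLC9A3 then had an unadjusted p of 0.0543 (adjusted p = 0.363), SLC9A8 an adjusted p of 0.511 and SCNN1G one of 0.615. With the block 0 of the 9 passed, and 0 genes passed in all.

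With each array centred on its own median the standard errors came to 0.23 to 0.38, and the intervals narrowed. The median log2 fold change over all genes was then 0.13, against 0.04 as deposited. SLC9A3 then had a log2 fold change of -0.48 (interval -1.05 to 0.09, adjusted p = 0.450 in limma) and SLC9A8 one of 0.59 (interval -0.10 to 1.28, adjusted p = 0.438 in limma). After centring SCNN1B was at 0.09 and SCNN1D at 0.06, both under that median of all genes, so neither had a settled sign. A change of more than 1 on the log2 scale in either direction lay outside the intervals of the 7 targets other than SLC9A3 and SLC9A8, of which SLC8A1 had the narrowest, -0.53 to 0.51, and SCNN1A the widest, -0.93 to 0.79. In total RNA of a culture, less RNA per cell and fewer cells that carry the RNA cannot be told apart. With 3 arrays in each group an exact permutation test would reach p = 0.1 at best and was left out.

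**Figure D3:**
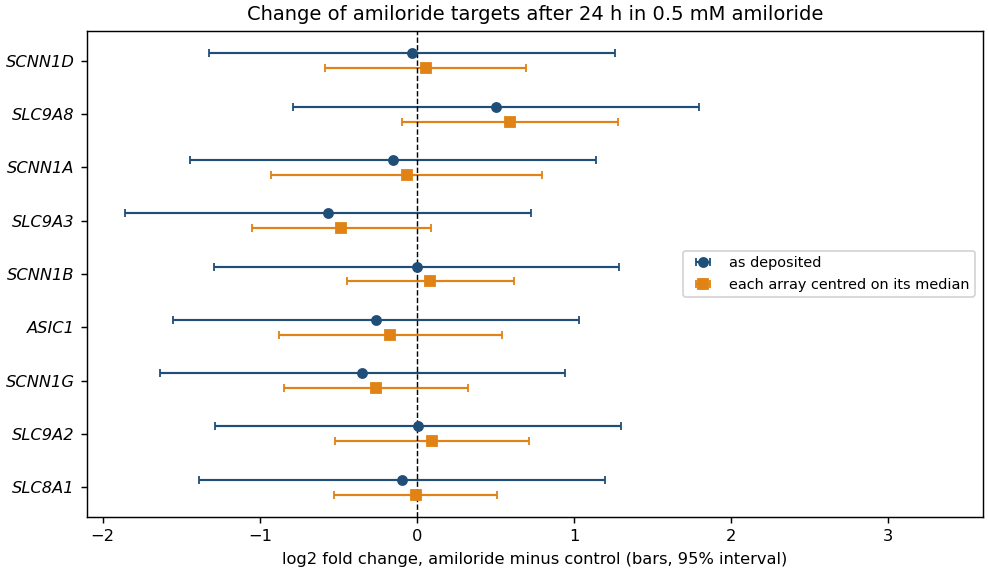
Log2 fold change of each target, amiloride minus control, with its 95% interval from limma, for the values as deposited (circles) and with each array centred on its median (squares). All 18 intervals include 0, those of SLC9A3 and SLC9A8 after centring by the smallest margin.

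The signal of a gene was not even along its probe sets. Of the 200 probe sets, 89 (44.5%) lay above the array median on all 6 arrays, against 55.7% of all probe sets with 1 symbol. SCNN1D led with 29 of 38, followed by SCNN1A with 15 of 23, SLC9A3 with 11 of 20, SLC9A8 with 12 of 22, SCNN1B with 8 of 18 and ASIC1 with 5 of 16. SCNN1G had 3 of 17, SLC9A2 3 of 20 and SLC8A1 3 of 26. The mean log2 values of a gene's probe sets spanned 3.44 in ASIC1 to 7.98 in SLC9A3. The mean profiles of amiloride and control over the probe sets correlated at 0.76 in SLC8A1 and 0.89 to 0.98 in the other 8 targets (Pearson's r over 16 to 38 probe sets, which share their arrays and their probe affinities), and the median over all genes was 0.93.

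**Figure D4:**
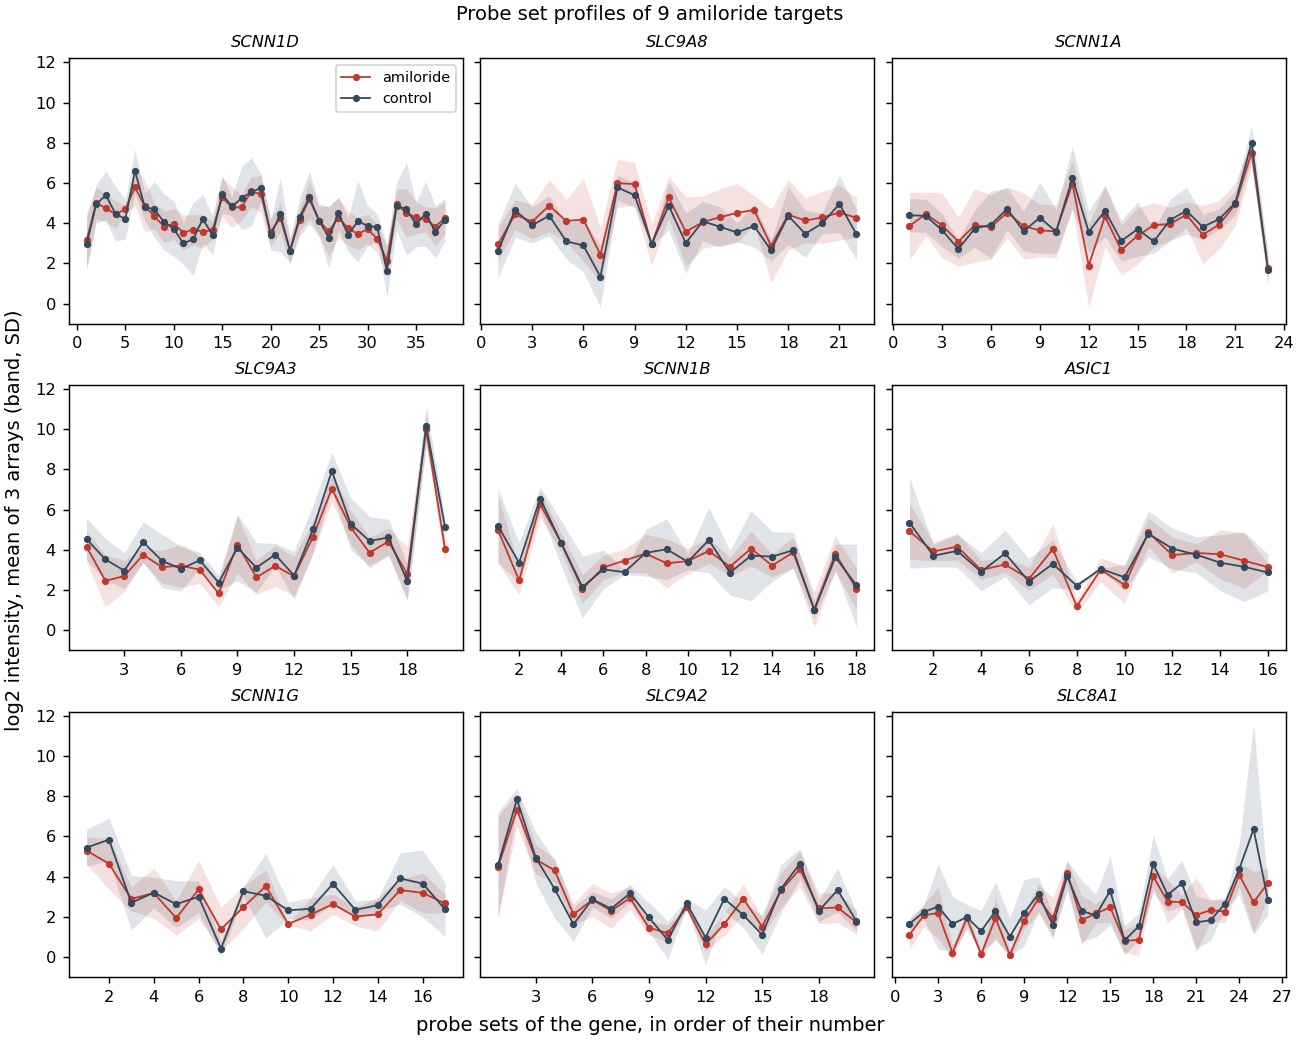
Mean log2 intensity of each probe set of the 9 targets in amiloride (red) and control (dark grey), with bands of 1 SD over 3 arrays and probe sets in order of their number. The profiles of the groups follow each other, single probe sets of SLC9A3, SLC9A2 and SCNN1A rise far above the rest of their gene, and the widest band belongs to 1 probe set of SLC8A1 in control.

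In several targets 1 or a few probe sets carried most of the brightness. Probe set 2845399 of SLC9A3 was at 10.8, 9.74 and 9.42 (log2) on amiloride arrays and 11.3, 9.50 and 9.71 on control arrays, while the gene level of SLC9A3 was 2.78 to 4.34 in amiloride and 3.35 to 5.13 in control. Its neighbour in number, 2845400, at 4.59, 3.31 and 4.25 in amiloride and 5.64, 4.78 and 4.99 in control, showed no such brightness and had the smallest p of the gene (log2 fold change -1.09, SE 0.86, adjusted p = 1.00 in limma). RefSeq lists 3 pseudogenes of SLC9A3 (SLC9A3P1, SLC9A3P2 and SLC9A3P3) and 1 antisense gene. Whether any probe set reads these was not tested, so the level of SLC9A3 is uncertain to that extent. Probe set 3441913 of SCNN1A was at 7.57, 6.78 and 8.16 in amiloride and 8.81, 8.05 and 7.15 in control, and probe set 2497255 of SLC9A2 at 8.17, 6.56 and 7.27 in amiloride and 8.47, 7.50 and 7.55 in control. So SLC9A2, low at the gene level, had 1 probe set that was bright on all 6 arrays. SLC9A8 held no such probe set: its brightest, 3888398, was at 7.36, 5.29 and 5.31 in amiloride and 6.41, 5.19 and 5.72 in control. The brightest of SCNN1B, 3652913, had means of 6.27 ± 0.65 in amiloride and 6.56 ± 0.57 in control, and the brightest of SCNN1G, 3652869, 5.29 ± 0.68 in amiloride and 5.44 ± 0.91 in control (SD, n = 3 each). ASIC1 owed its brightest probe set, 3414359, to replicate 1 of both groups, at 6.48 in amiloride and 7.97 in control, with 3.78 to 4.53 on the other 4 arrays.

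No probe set of the 9 targets passed the test either. Of 704143 probe sets tested in limma, 139 had an adjusted p under 0.05 (0.0197%), and 0 of these were among the 148 tested probe sets of the targets. At an unadjusted p under 0.05 there was 1 of the 148, in SLC8A1 and lower in amiloride, against 6925 higher and 4593 lower of the 704143. With the replicate number as a block, 0 probe sets passed in all. Without overlap between the groups, 4 of the 200 probe sets were lower in amiloride (2%, against 1.45% of all probe sets with 1 symbol) and 0 were higher (against 5.12%). The 4 were 1 each in SCNN1G, ASIC1, SLC9A2 and SLC9A3. Except in SLC9A3 they were dim, with at most 3.53 on any array.

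For exon use, the splicing index of a probe set, its log2 value relative to its gene on that array, was compared between the groups. Of 271399 indices tested in limma, 0 passed (0%), with 5158 higher and 7062 lower at an unadjusted p under 0.05. Of the 148 indices of the targets, 2 were lower and 2 higher at that level. They belonged to SCNN1D, SLC8A1 and SLC9A3. The SCNN1D probe set 2315688, the brightest of the gene, lay 1.95, 1.57 and 1.35 above the gene level on amiloride arrays and 2.47, 2.68 and 2.04 above it on control arrays. The groups did not overlap, and the difference was -0.78 (SE 0.32, adjusted p = 0.951 in limma). Among the targets' indices 5 (3.38%) were lower without overlap, against 5.8% of all, and 3 (2.03%) were higher, against 4.99% of all. In SLC8A1 probe set 2549625 lay 1.46, 1.17 and 1.76 above the gene level in amiloride and 0.20, 0.21 and 1.15 above it in control (difference 0.94, SE 0.37, adjusted p = 0.951 in limma). In SLC9A3 probe set 2845368 lay close to the gene level in amiloride, at -0.03, -0.62 and -0.07, and under it in control, at -0.82, -1.11 and -0.96 (difference 0.72, SE 0.30, adjusted p = 0.951 in limma).

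The study's methods set 3 criteria on exons: both the splicing index and the log2 ratio had to be -1.585 or less, and the profiles of the groups had to correlate at 0.7 or more. On means over the replicates, 2 of the 200 probe sets of the targets met them (1%), against 0.382% of all 356353 probe sets, and 0 met the mirrored criteria, against 0.229%. Each of the 2 rested on few arrays. Probe set 2549622 of SLC8A1 had a log2 ratio of -3.64 and, set against its gene, a splicing index of -3.51. It was at 2.89, 1.10 and 4.18 in amiloride, against 3.31, 12.4 and 3.36 in control, so that control replicate 2 alone was bright and the groups overlapped. Its adjusted p in limma over all probe sets was 0.0831. Without control replicate 2 the splicing index came to -0.07, and without control replicate 1 or 3, which raised the weight of replicate 2, the adjusted p in limma came to 2.58e-06 or 0.00204. Probe set 3441898 of SCNN1A had a log2 ratio of -1.67 and, set against its gene, a splicing index of -1.64. It was at 4.09, 1.58 and 0.00 in amiloride, the last value being the floor, and at 4.64, 2.58 and 3.46 in control, and these groups overlapped as well. Relative to its gene it was at -1.23, -1.53 and -3.08 in amiloride, against -0.46, -0.30 and -0.52 in control, without overlap. It was too dim on average to be among the probe sets tested. Probe set 2497254 of SLC9A2, picked after its values were seen, was bright on replicate 2 of both groups, at 7.40 in amiloride and 7.46 in control, and between 2.31 and 3.96 on the other 4 arrays.

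**Figure D5:**
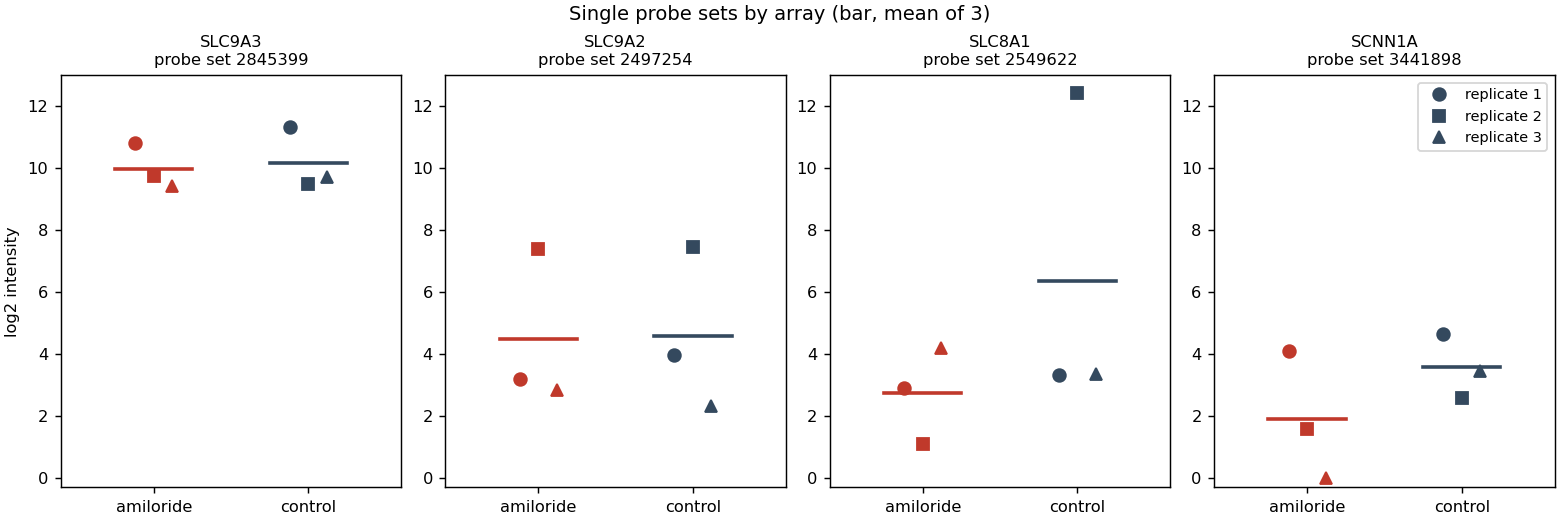
Log2 intensity on each array of 4 probe sets, amiloride left of control, with symbols for the replicate number and bars at the mean of 3 arrays. The SLC9A3 probe set is near 10 on all arrays, the SLC9A2 probe set is bright on replicate 2 of both groups, the SLC8A1 probe set on control replicate 2 alone, and the SCNN1A probe set is at the floor of 0 on amiloride replicate 3.

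Genes related to these targets by family, function or binding of amiloride were read from 8 lists with 66 genes, of which 57 were measured. The other 9 were not analysed here. As with the targets, 0 of the 57 passed in limma on the deposited values, and 0 had an unadjusted p under 0.05. With each array centred, the unadjusted p in limma was 0.0021 for SLC9B2, 0.0107 for CNKSR3, 0.0108 for SGK1 and 0.0385 for SLC16A3. Their adjusted p in limma was then 0.161 to 0.315. The share of all genes under 0.05 after centring is not given here. The 57 had a median log2 fold change of -0.02, against 0.04 over all genes. Their median percentile was 51.2, and 41 (71.9%) lay above the array median on all 6 arrays, against 67.6% of all genes. In percentiles, 5 of the 57 were lower in amiloride without overlap (8.77%, against 8.4% of all genes) and 3 were higher (5.26%, against 7.97%).

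Among the 7 other exchangers of the family that were measured, SLC9B2, a sodium-proton antiporter, had percentiles of 74.4, 89.4 and 76.1 in amiloride, against 57.9, 59.4 and 59.9 in control. The groups did not overlap, and the log2 fold change was 1.22 (SE 0.66, adjusted p = 1.00 in limma), or 1.31 (SE 0.31, adjusted p = 0.161) with each array centred. SLC9C1, a sperm exchanger, was at the bottom of the arrays, with a mean percentile of 0.90. The 6 partners measured had a median percentile of 82.1. NHERF1, the scaffold that ties SLC9A3 to the cytoskeleton, was at percentile 96.8 and EZR, ezrin, which links that scaffold to actin, at 95.9. PDZK1, a related scaffold, had gene levels of 6.38, 6.14 and 6.55 in amiloride and 5.09, 5.84 and 5.58 in control, and EZR 7.68, 6.83 and 6.91 in amiloride and 6.66, 6.59 and 6.66 in control. Neither overlapped, as was the case for 6.26% of all genes in that direction, and both overlapped in percentiles. In percentiles 2 other partners were lower in amiloride without overlap. TESC, which binds the exchangers, had 72.4, 62.5 and 65.4 in amiloride, against 88.9, 76.6 and 73.5 in control, and NHERF2, a scaffold akin to NHERF1, 74.7, 74.6 and 74.4 in amiloride, against 91.3, 78.4 and 79.3 in control. Their log2 fold changes were -0.37 and -0.19 (SE 0.66, adjusted p = 1.00 each in limma).

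Of the 15 ENaC regulators, SGK1, a kinase that keeps ENaC at the cell surface, had gene levels of 8.06, 5.84 and 6.12 in amiloride, against 5.81, 5.68 and 5.02 in control. Its log2 fold change was 1.17 (SE 0.66, adjusted p = 1.00 in limma), or 1.26 (SE 0.40, adjusted p = 0.218) with each array centred. In percentiles its groups overlapped, with 96.8, 92.6 and 91.7 in amiloride and 81.4, 92.5 and 81.4 in control. CNKSR3, a scaffold on which SGK1 and ENaC meet, had percentiles of 89.8, 87.8 and 88.1 in amiloride, against 62.0, 82.5 and 84.9 in control, without overlap (log2 fold change 1.03, SE 0.66, adjusted p = 1.00 in limma). With each array centred its log2 fold change was 1.12 (SE 0.35, adjusted p = 0.217 in limma). NEDD4L, the ubiquitin ligase that removes ENaC from the membrane, was at percentile 78.9 and FURIN, a protease that cleaves ENaC subunits, at 96.7. Over the 15 regulators the mean percentiles ran from 5.04 to 96.7, with a median of 53.3.

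Among the remaining lists, ATP1B1 and ATP1B3, beta subunits of the sodium pump, were at percentiles 98.6 and 96.5. Their log2 fold changes were 0.57 and 0.75 (SE 0.66 each, unadjusted p = 0.387 and 0.257 in limma). The groups overlapped for both, in gene level and in percentile. Of the acid extruders, SLC16A3, a lactate and proton exporter, had percentiles of 68.2, 56.1 and 62.7 in amiloride, against 91.0, 75.0 and 85.8 in control, without overlap (log2 fold change -0.82, SE 0.66, adjusted p = 1.00 in limma). With each array centred its log2 fold change was -0.73 (SE 0.30, adjusted p = 0.315 in limma). CA2, a carbonic anhydrase, had a log2 fold change of 0.82 with overlapping groups. ATP2B4, a plasma membrane calcium pump, had percentiles of 39.6, 41.4 and 33.0 in amiloride, against 48.0, 65.0 and 59.3 in control, and SLC8B1, the mitochondrial sodium-calcium exchanger, 48.1, 46.2 and 45.3 in amiloride, against 69.5, 49.2 and 54.5 in control. In ASIC2, ASIC5, PKD2L1, a channel, and PLAU, the urokinase that amiloride inhibits, the log2 fold changes were -0.24, -0.33, -0.25 and -0.32, and their groups overlapped in percentiles.

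Marker genes of other tissues were set beside the targets as the summed linear gene level of each list, in parts per 1000000 of the sum over all genes. The 6 kidney and airway markers came to 153 to 257 in amiloride and 135 to 230 in control, and the 3 neuron markers to 50.3 to 79.3 in amiloride and 63.4 to 81.5 in control. The 4 heart muscle markers came to 61.4 to 66.2 in amiloride and 71.1 to 115 in control, the 4 fibroblast markers to 50.3 to 54.5 in amiloride and 58.0 to 109 in control, and the 3 leukocyte markers to 30.4 to 36.2 in amiloride and 32.6 to 44.2 in control. The 10 hepatocyte markers came to 10915 to 11906 in amiloride and 10934 to 14502 in control. The heart muscle and fibroblast sums did not overlap between the groups, and both were lower in amiloride. Of the single genes in the heart muscle and fibroblast lists, only TNNT2 and COL3A1 had percentiles lower in amiloride without overlap, against 8.4% of all genes. In the other marker lists AQP2 and APOB were lower without overlap too, while SYT1 and GPC3 were higher without overlap. No share for sums of other genes is given here, so whether such a gap between the groups is common cannot be told. Values under 1 were set to 1 before log2, so no sum could reach 0, and background signal was not told apart from RNA. The part of these markers in the values of SLC9A3 was not tested.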

How the data were processed

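Total RNA of Huh-7 cells was read on Affymetrix exon arrays (Human Exon 1.0 ST), 3 per group. The authors removed bias with background probes, normalized and summarised the arrays in dChip (build hg18, per the labels), and deposited a linear intensity for each probe set on each array. The methods and the series text name different dChip releases. All 6 columns were used as deposited, with 0 left out. Values under 1 were set to 1 before log2. Of 1408285 probe sets, 357582 had 1 symbol, 15322 several and 1035381 none. Old symbols were updated through RefSeq (GRCh38.p14), whose coordinates were not used to place probe sets.

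Gene levels were medians over all probe sets of 1 symbol (at least 3 per gene). Genes, probe sets whose mean log2 value reached 2.796 and splicing indices were tested with lmFit and eBayes in limma 3.58.1 (R 4.3.3), two-sided, with Benjamini-Hochberg adjustment at 0.05. Scripts were tested on simulated data. The number of arrays limits the precision. Named were the 9 targets, the brightest probe set of each, and per related list the 2 genes with the smallest p. Probe sets with the smallest p in both probe set tests were named only for SCNN1D, SLC9A3 and SLC8A1. NHERF1, NEDD4L and FURIN were named for their rank, and TESC and NHERF2 for percentiles without overlap, after values were seen. Members and lists were chosen with earlier results of these data known. Alternatives covered scaling, floor, gene summary, filters, replicate block and left-out arrays.

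The labels number the replicates 1 to 3 in both groups. After removal of group means, same-numbered arrays correlated at 0.231, 0.203 and 0.175 across probe sets (other pairs at most 0.0486), 0.146, 0.186 and 0.332 across splicing indices (at most 0.0179), 0.163, 0.0974 and 0.188 across gene levels (at most 0.121) and 0.185, 0.109 and 0.205 across quantile-normalized gene levels (at most 0.0794). All but 1 of these are above 0.1, so the numbers were read as pairs and values with the replicate number as a block are given beside the unblocked fit. This was settled with both fits seen.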

Additional observations from a re-analysis of the deposited data

How the results depend on the processing

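None of the 9 targets was called in any of 16 settings of the gene-level fit, the lowest adjusted p in limma being 0.363, and 0 of their splicing indices was called in any setting. The sign of a fold change turned in 27 of 135 alternatives, never for SLC9A3. Median centring gave SCNN1B 0.0857 and SCNN1D 0.0558, quantile normalization, with or without the block, 0.0697 for SCNN1B, 0.0248 for SCNN1D and 0.0421 for SLC8A1. Leaving out dim probe sets gave ASIC1 0.11, and the mean over probe sets gave SLC9A2 -0.0772. Leaving out 1 array at a time, the fold change ran from -0.89 to 0.40 for SCNN1A, -0.34 to 0.46 for SCNN1B, -0.62 to 0.10 for SCNN1G, -0.55 to 0.56 for SCNN1D, -0.66 to 0.12 for ASIC1, -0.28 to 0.27 for SLC9A2, -1.01 to -0.01 for SLC9A3, -0.10 to 0.88 for SLC9A8 and -0.42 to 0.32 for SLC8A1. The cause was not tested. The percentile difference of SLC9A3, -18.7, ran from -22.2 to -13.2 over left-out arrays, an alternative chosen after seeing the data.

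Targets above the array median on all arrays numbered 5, or 6 with the mean over probe sets (5 to 6 with 1 array left out). They numbered 9 without dim probe sets, which that filter brings about, and 0 against the median of gene levels. Targets below numbered 1, or 0 without dim probe sets and 5 against the median of gene levels (1 to 2 with 1 array left out). The 6 genes higher in amiloride became 2 with quantile normalization, median centring, dim probe sets left out or a trended robust prior, 3 with quantile normalization and the replicate block, 1 with the mean and 0 with 16 added before log2 (1 to 6 with 1 array left out, and 0 to 1 lower genes). The 46 probe sets called higher and 93 called lower became 0 and 0 with quantile normalization, centring or 16 added, and 10 and 0 with no filter (0 to 203 and 0 to 1347 with 1 array left out, the most without control replicate 1). Of the targets' probe sets 0 to 1 were then called. The 2 that met the criteria became 0 with 16 added and 1 with the mean or centring (0 to 2 with 1 array left out, and 0 to 1 for the mirrored criteria).

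With the replicate block, 0 genes and 0 probe sets were called, and SLC9A3 was at -0.57 with SE 0.25 and adjusted p = 0.363 in limma. The block changed no call for a target.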
